A study of Mus musculus with 12 samples.

Results

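The 10 genes described here encode the machinery that cuts and rejoins antigen receptor genes: Rag1, Rag2, Dntt, Xrcc5, Xrcc6, Xrcc4, Lig4, Prkdc, Dclre1c and Nhej1. They were chosen by name, as the rows of the count table that carry these symbols, and all 10 of the 32285 listed genes were found once each. RNA was sequenced from sorted bone marrow progenitors of WT C57BL6/J mice, with no transgene or treatment in any group. The 4 groups were Ly6d- CLPs (common lymphoid progenitors) and Flk2+ MPPs (multipotent progenitors), each from mice of 1 month (1MO) and 3 months (3MO) of age, with 3 libraries per group. The estimated counts summed to between 8889083 and 20677785 per library, with a median of 13208993. The study describes 3 independent experimental repeats, and since the labels name no animal behind a library, p-values measure the spread between these libraries.

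V(D)J recombination assembles the variable exons of immunoglobulin and T cell receptor genes from separate V, D and J segments. RAG1 and RAG2 form the recombinase that cuts DNA at the recombination signals, and terminal deoxynucleotidyl transferase, the product of Dntt, adds nucleotides without a template to the coding ends. These 3 proteins are made mainly in developing lymphocytes. The breaks are closed by classical non-homologous end joining, which every cell uses: the Ku heterodimer (XRCC6 and XRCC5) binds the ends, the kinase DNA-PKcs (Prkdc) activates the nuclease Artemis (Dclre1c) to open hairpins, and XRCC4, XLF (Nhej1) and DNA ligase IV (Lig4) seal them. RAG expression is already known in early lymphoid progenitors, before most rearrangement takes place.

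Per the GENCODE M21 annotation of GRCm38 (mm10), Rag2 (chr2:101624718-101632529, plus strand) and Rag1 (chr2:101638282-101649501, minus strand) face each other on chromosome 2, with 5752 bases between their ends. Dntt lies at chr19:41029275-41059525 on the plus strand. The Ku genes are on separate chromosomes, Xrcc6 at chr15:81987835-82040085 and Xrcc5 at chr1:72307421-72394952, both on the plus strand. Of the remaining genes, Prkdc lies at chr16:15637866-15842235, Dclre1c at chr2:3424131-3464130, Xrcc4 at chr13:89774027-90089608, Lig4 at chr8:9969049-9977686 and Nhej1 at chr1:74967139-75125200. All 10 are annotated as protein coding. Their merged exons cover from 1118 bases in Nhej1 to 13187 bases in Prkdc.

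RefSeq promoter sequences (GRCm38.p6, 250 bases before to 50 after the annotated start) were found for 9 of the 10 members, Prkdc being the exception. The RefSeq start of Xrcc6 lies inside the GENCODE gene given above, downstream of its start at 81987835, so the 2 annotations differ there. They are shown for the lymphoid-specific trio, whose transcripts were all higher in CLPs, and for both Ku subunits, of which Xrcc6 was called higher in CLPs and Xrcc5 had negative values that did not pass the test. Each is written 5′ to 3′ on the gene's strand, and capitals mark every CpG dinucleotide.
Rag1, chr2:101649483-101649782, minus strand: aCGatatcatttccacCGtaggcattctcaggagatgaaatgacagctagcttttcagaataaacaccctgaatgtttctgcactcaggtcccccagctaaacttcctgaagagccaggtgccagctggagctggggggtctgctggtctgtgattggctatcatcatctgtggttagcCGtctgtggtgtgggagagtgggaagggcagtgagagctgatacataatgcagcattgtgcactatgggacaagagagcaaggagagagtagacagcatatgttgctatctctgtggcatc
Rag2, chr2:101624462-101624761, plus strand: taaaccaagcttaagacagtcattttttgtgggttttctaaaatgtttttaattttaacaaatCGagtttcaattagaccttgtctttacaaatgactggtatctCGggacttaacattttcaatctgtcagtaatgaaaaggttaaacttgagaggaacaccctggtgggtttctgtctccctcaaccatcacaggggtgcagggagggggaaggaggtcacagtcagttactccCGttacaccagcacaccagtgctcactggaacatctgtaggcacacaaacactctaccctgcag
Dntt, chr19:41029025-41029324, plus strand: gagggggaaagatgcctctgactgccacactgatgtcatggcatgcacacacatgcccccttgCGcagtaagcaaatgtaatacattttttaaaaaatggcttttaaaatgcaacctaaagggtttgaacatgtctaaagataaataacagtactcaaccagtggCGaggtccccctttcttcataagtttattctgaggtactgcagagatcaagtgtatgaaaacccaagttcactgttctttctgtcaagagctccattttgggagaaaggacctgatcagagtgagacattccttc
Xrcc6, chr15:82016119-82016418, plus strand: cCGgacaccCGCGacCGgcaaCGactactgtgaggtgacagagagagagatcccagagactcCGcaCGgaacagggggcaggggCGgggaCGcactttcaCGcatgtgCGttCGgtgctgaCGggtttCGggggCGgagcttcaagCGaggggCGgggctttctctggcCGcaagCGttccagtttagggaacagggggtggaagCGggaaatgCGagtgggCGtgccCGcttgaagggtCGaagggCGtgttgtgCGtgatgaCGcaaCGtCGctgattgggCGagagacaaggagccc
Xrcc5, chr1:72307171-72307470, plus strand: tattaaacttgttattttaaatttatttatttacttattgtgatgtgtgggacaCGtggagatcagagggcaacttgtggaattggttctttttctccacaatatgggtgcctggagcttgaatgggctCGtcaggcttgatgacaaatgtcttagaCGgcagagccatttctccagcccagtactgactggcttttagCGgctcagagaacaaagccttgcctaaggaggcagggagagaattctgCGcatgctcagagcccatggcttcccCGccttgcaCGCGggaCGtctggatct

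The lymphoid-specific promoters held few CpGs, 3 in Rag1, 3 in Rag2 and 2 in Dntt, against a median of 7 over all 32851 promoters. The GC content was 50% in Rag1, 43.0% in Rag2 and 42.3% in Dntt, beside a median of 52.7%. The promoters of the ubiquitous members held 9 CpGs in Xrcc5, 10 in Nhej1, 12 in Dclre1c, 30 in Xrcc6, 31 in Xrcc4, and 30 and 29 in the 2 promoters listed for Lig4. The motif GGGCGG, on either strand, was absent from the 3 lymphoid-specific promoters and present in Xrcc6, Xrcc4, Dclre1c, Nhej1 and 1 of the 2 Lig4 promoters, while 35.7% of all promoters held it. The E-box CANNTG, which reads the same on both strands, was found in 72.3% of promoters, and occurred 4 times in Rag1, 2 times in Rag2 and 3 times in Dntt. Its form CAGGTG (20.2% of promoters, either strand) was matched in Rag1 alone among the 9 members. GGGAA (62.7%) was matched once in each lymphoid-specific promoter, CCAAT (37.4%) in Rag1, Xrcc5, Xrcc6 and Dclre1c, and TATAAA (13.6%) in no member. These are letter matches on either strand, not occupied sites.

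Levels are given as CPM, the counts of a gene relative to its library's total, scaled by the TMM method of edgeR. The sorted cells carried the transcripts that define them. Il7r, the receptor used to define CLPs, stood at 371 ± 37.6 CPM (SD, n = 3) in 1MO CLPs and 340 ± 35.4 in 3MO CLPs, and at 10.4 ± 7.14 and 10.4 ± 2.53 in the MPPs of each age. Hlf and Kit, which mark more primitive progenitors, were higher in MPPs. The summed level of 8 CLP markers was 4733 to 5372 CPM in the CLP libraries and 2299 to 2906 in the MPP libraries, and that of 9 MPP markers 2365 to 2541 and 3563 to 3942. Both lists hold Flt3, which encodes Flk2 and averaged 1424 CPM in 1MO CLPs and 1150.4 in 1MO MPPs. Of the CLP markers, 4 were called higher in CLPs at each age and 1, the cytokine receptor chain Il2rg, lower (log2 -0.73, edgeR adjusted p = 0.0411 at 1MO, and -0.79, adjusted p = 0.0257 at 3MO), where 2.57% of all tested genes were called higher and 2.81% lower at 1MO, and 2.73% and 3.34% at 3MO. Beside the same shares, 5 of the 9 MPP markers at 1MO and 6 at 3MO were called lower in CLPs and 0 higher. The other way lay 2 of them, Flt3 and Cd48, with positive values at both ages.

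The recombinase genes were expressed at higher levels in CLPs than in MPPs. Rag1 measured 266, 197 and 326 CPM in the 1MO CLP libraries and 79.8, 83.9 and 126 in the 3MO CLPs. The 1MO MPP libraries had 13.4, 10.8 and 12.6 CPM, and the 3MO MPP libraries 4.97, 9.5 and 8.36. Every CLP library lay above every MPP library, and the 2 ages did not overlap in either cell type. The share of all genes that lack overlap between such groups was not determined. Rag1 was 21.4-fold higher in CLPs than in MPPs at 1MO (log2 fold change 4.42, SE 0.28, edgeR adjusted p = 2.89e-07) and 12.5-fold higher at 3MO (3.65, SE 0.28, adjusted p = 2.69e-06). In bulk samples, fewer expressing cells and less RNA per cell cannot be told apart.

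Rag2 measured 66.5, 104 and 85.1 CPM in the 1MO CLPs and 67.8, 56.2 and 67.9 in the 3MO CLPs. The 1MO MPPs had 14.3, 11.3 and 12.1 CPM, and the 3MO MPPs 3.7, 12.4 and 15.6. The CLP and MPP libraries were again fully apart, whereas the 2 ages overlapped in both cell types. The difference between CLPs and MPPs was 6.77-fold at 1MO (log2 2.76, SE 0.37, adjusted p = 0.000258) and 5.98-fold at 3MO (2.58, SE 0.37, adjusted p = 0.000525).

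Dntt was by far the most abundant member. It measured 1988, 2917 and 2922 CPM in 1MO CLPs, 2206, 2522 and 2446 in 3MO CLPs, 460.4, 406 and 389 in 1MO MPPs, and 376, 667 and 598 in 3MO MPPs. CLPs exceeded MPPs 6.24-fold at 1MO (log2 2.64, SE 0.21, adjusted p = 2.82e-06) and 4.37-fold at 3MO (2.13, SE 0.21, adjusted p = 2.00e-05). The lowest MPP library still had 376 CPM of Dntt, whereas no MPP library exceeded 13.4 CPM of Rag1 or 15.6 CPM of Rag2.

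**Figure D1:**
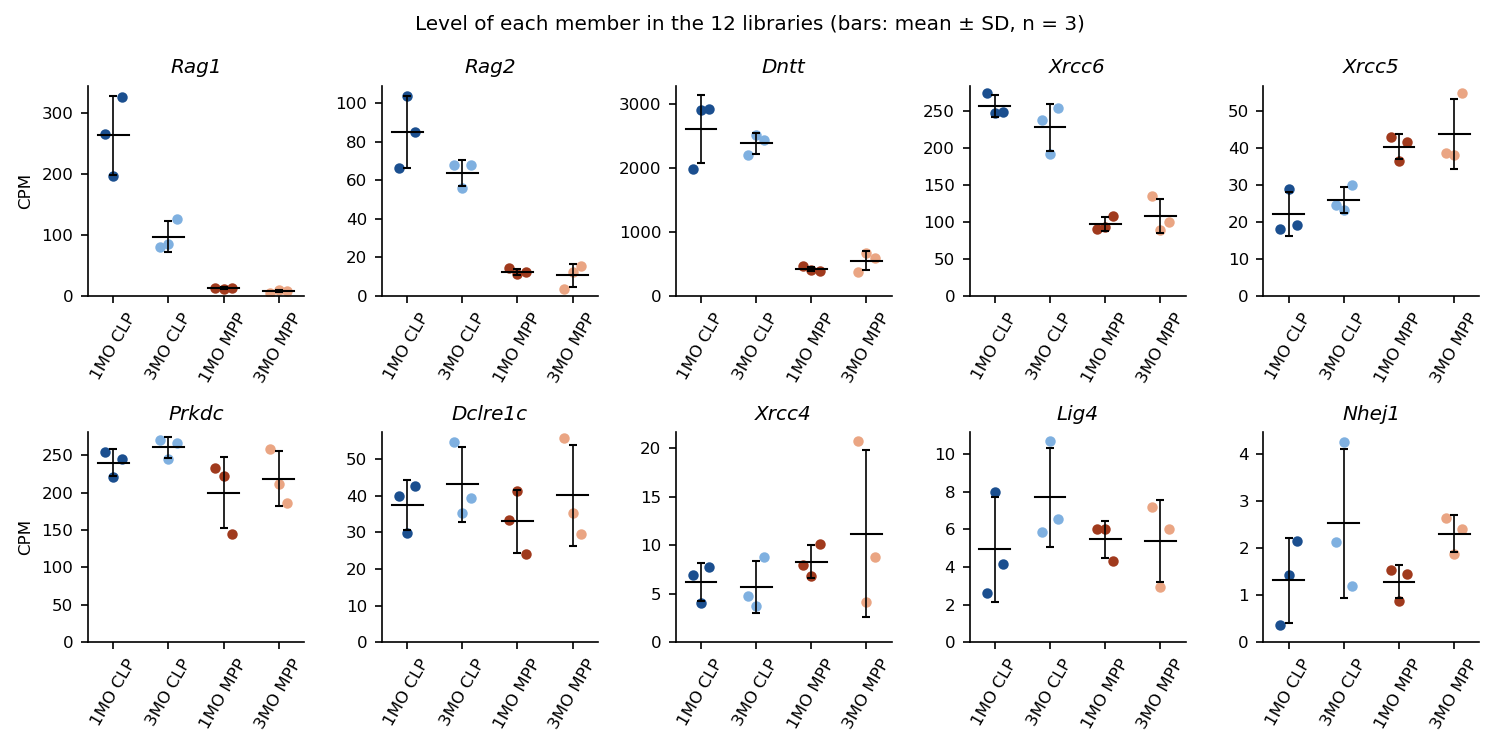
CPM of each member (vertical axis, linear, from 0) in the 12 libraries by group; points are libraries, horizontal bars the mean and whiskers the SD of 3. Rag1, Rag2 and Dntt were higher in every CLP library than in any MPP library, Xrcc6 likewise, Xrcc5 was lower in every CLP library, and the others overlapped between CLPs and MPPs.

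Among the 7 ubiquitous members, only Xrcc6 passed the test between cell types. This Ku subunit measured 275, 248 and 249.8 CPM in 1MO CLPs and 239, 192 and 254 in 3MO CLPs, against 90.1, 93.3 and 109 in 1MO MPPs and 135, 89.6 and 100.1 in 3MO MPPs. It was 2.65-fold higher in CLPs at 1MO (log2 1.40, SE 0.18, adjusted p = 0.000164) and 2.11-fold higher at 3MO (1.08, SE 0.18, adjusted p = 0.0015). Its partner Xrcc5 lay the other way. Xrcc5 measured 18.2, 28.9 and 19.2 CPM in 1MO CLPs, 24.7, 23.2 and 30.0 in 3MO CLPs, 43.1, 36.5 and 41.6 in 1MO MPPs, and 38.6, 38.1 and 54.9 in 3MO MPPs. All CLP libraries lay below all MPP libraries, but with log2 fold changes of -0.87 (SE 0.25, adjusted p = 0.0574) and -0.76 (SE 0.25, adjusted p = 0.0935) Xrcc5 did not pass the threshold at either age. DESeq2 called it at both ages, with adjusted p = 0.0124 at 1MO and 0.0346 at 3MO.

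Because both Ku subunits act as 1 heterodimer, their counts were compared within each library, a comparison chosen after their values were seen. The ratio of Xrcc6 to Xrcc5 counts, not corrected for transcript length, ranged from 8.58 to 15.1 in 1MO CLPs, from 8.28 to 9.67 in 3MO CLPs, from 2.09 to 2.61 in 1MO MPPs and from 1.82 to 3.49 in 3MO MPPs. The log2 ratio was higher in CLPs by 2.31 at 1MO and by 1.83 at 3MO, with no overlap (exact permutation test, two-sided p = 0.1, n = 3 per group, adjusted p = 0.2 over 4 comparisons at each age). That p is the smallest that 3 libraries against 3 allow, so no ratio could pass 0.05. A stretch of 344 bases, 7.69% of the merged exons of Xrcc6, is shared with exons of Desi1 on the opposite strand, and how strand was used in the counting is not given in the sources used here.

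The kinase and nuclease that open the hairpin ends passed the test in no comparison. Prkdc averaged 239.9 ± 17.8 CPM in 1MO CLPs, 260.4 ± 13.5 in 3MO CLPs, 200.1 ± 47.9 in 1MO MPPs and 219 ± 36.4 in 3MO MPPs (SD, n = 3 each). Dclre1c averaged 37.5 ± 6.74, 43.1 ± 10.2, 33.0 ± 8.62 and 40.2 ± 13.8 CPM in the same order. Their log2 fold changes between CLPs and MPPs lay between 0.10 and 0.26, with SEs of 0.18 for Prkdc and 0.29 for Dclre1c. The log2 CPM of these 2 genes had a Pearson's r of 0.82 over the 12 libraries, 0.83 within the 6 CLP and 0.89 within the 6 MPP libraries, a description of points that share library and depth.

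The ligation complex was represented by few reads. Xrcc4 ranged from 3.71 to 20.7 CPM over the 12 libraries, Lig4 from 2.61 to 10.7 and Nhej1 from 0.36 to 4.26, the last resting on 4 to 77 counts per library. Group means of Xrcc4 were 6.24 ± 1.94 and 5.74 ± 2.68 CPM in 1MO and 3MO CLPs and 8.29 ± 1.68 and 11.2 ± 8.57 in 1MO and 3MO MPPs. Those of Lig4 were 4.93 ± 2.77, 7.71 ± 2.63, 5.47 ± 0.98 and 5.39 ± 2.19 in the same order, and those of Nhej1 1.32 ± 0.90, 2.52 ± 1.58, 1.28 ± 0.35 and 2.31 ± 0.40. None differed between CLPs and MPPs beyond its spread. Exons are shared with a gene on the opposite strand over 112 bases in Xrcc4 (Tmem167) and, among the genes above, over 357 bases in Dclre1c (Suv39h2). With SEs of about 0.55 on the log2 scale for Xrcc4 and 0.54 for Lig4, and of 0.93 at 1MO and 0.92 at 3MO for Nhej1, moderate differences were not detectable with these libraries.

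Counting all members, 4 of 10 were called higher in CLPs at 1MO (edgeR adjusted p under 0.05) and none lower, where 5.38% of the 13367 tested genes were called, 2.57% higher and 2.81% lower. At 3MO the same 4 members, Rag1, Rag2, Dntt and Xrcc6, were called higher, beside a background of 6.07% called, 2.73% higher and 3.34% lower. The calls covered 3 of the 3 lymphoid-specific members and 1 of the 7 ubiquitous ones at each age. The median log2 fold change was 2.76 at 1MO and 2.58 at 3MO for the lymphoid-specific trio, 0.04 and 0.13 for the ubiquitous members, and -0.02 and -0.03 over all tested genes. All 10 members passed the filter on low counts. Each of the 4 called members kept its call when any of the 12 libraries was left out.

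**Figure D2:**
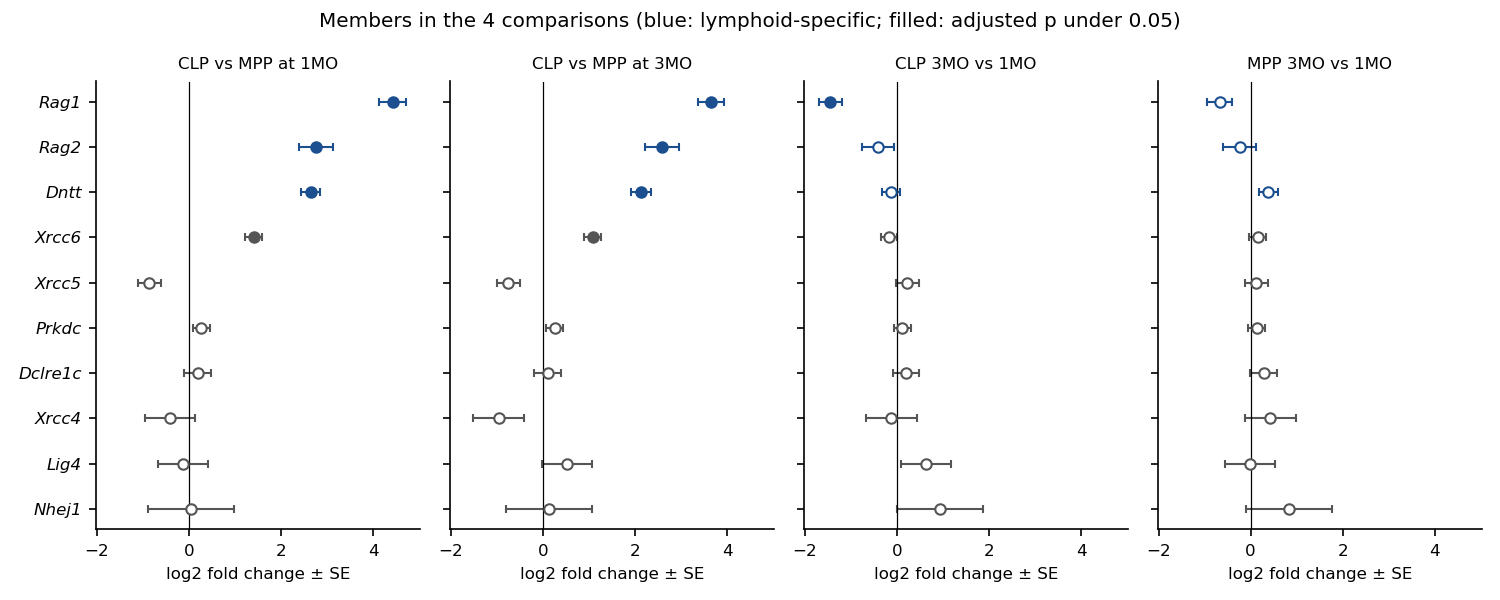
Log2 fold change of each member (points) with its SE (bars) in 4 comparisons, the first-named group over the second; blue points are the lymphoid-specific members, filled points have an adjusted p under 0.05. Rag1 lies at 4.42 and 3.65 between CLPs and MPPs and at -1.44 between the ages in CLPs, and no ubiquitous member other than Xrcc6 is filled.

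Between ages, Rag1 was the only member called, and it was lower in the older CLPs. Its level fell from 263 ± 64.8 CPM at 1MO to 96.5 ± 25.4 at 3MO, a 2.72-fold difference (log2 fold change -1.44, SE 0.25, edgeR adjusted p = 0.0428). In this comparison 0.0748% of the tested genes, 10 in all, were called, and Rag1 had the 10th smallest p. In this edgeR fit the call lies close to the threshold. It was lost when 9 of the 12 libraries were left out in turn and when only the CLP libraries were fitted (adjusted p = 0.11), and it held without 1MO CLP replicate 2, 3MO CLP replicate 3 or 3MO MPP replicate 1. The log2 fold change itself stayed between -1.68 and -1.26 in those fits. Of 5 alternative edgeR and DESeq2 settings, that fit of CLP libraries included, 4 called Rag1, DESeq2 among them. Over these 5 the adjusted p ran from 4.23e-05 to 0.11.

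No other member was called between ages in CLPs, with adjusted p of 0.92 or higher. Rag2 had a log2 fold change of -0.41 (SE 0.35) and Dntt of -0.13 (SE 0.20). Of the 7 ubiquitous members, 5 had positive and 2 negative values, from -0.17 in Xrcc6 to 0.93 in Nhej1, with a median of 0.20 beside -0.01 for all genes.

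In MPPs, 0 of the 10 members were called between ages by edgeR, with 0.0224% of all genes called, and 0 by DESeq2, with 35 genes called. Rag1 alone had an unadjusted p under 0.05, with a log2 fold change of -0.68 (SE 0.27, edgeR adjusted p = 1). Its 3MO MPP libraries rested on 47 to 132 counts. Dntt had a positive value of 0.39 (SE 0.20, adjusted p = 1). The MPP libraries of the 2 ages also did not overlap in Nhej1, which lay between 0.88 and 1.53 CPM at 1MO and between 1.87 and 2.64 at 3MO (log2 0.84, SE 0.94, adjusted p = 1). These Nhej1 values rested on 8 to 24 counts per library at 1MO and 25 to 34 at 3MO. How many of all genes lacked overlap in this comparison was not determined, so this separation is not read as an age difference. The test of whether the age difference itself varied between CLPs and MPPs called 0% of genes in edgeR, with 429 at an unadjusted p under 0.05, and 7 genes in DESeq2. Rag1 gave -0.77 (SE 0.36), Dntt -0.51 (SE 0.28) and Rag2 -0.18 (SE 0.50). The unadjusted edgeR p of Rag1 was 0.0505, and 0 to 2 members were under 0.05 in the alternative fits, but no fit called a member after adjustment.

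Rag1 and Rag2 lie next to each other, and their counts were compared within libraries. The ratio of Rag1 to Rag2 was 4.0, 1.89 and 3.83 in 1MO CLPs and 1.18, 1.49 and 1.85 in 3MO CLPs. The 1MO MPP libraries gave 0.94, 0.95 and 1.04, and the 3MO MPP libraries 1.34, 0.76 and 0.54. The 2 ages did not overlap in CLPs, although the highest 3MO and the lowest 1MO library lay close together. The mean log2 ratio was 1.62 ± 0.61 in 1MO CLPs and 0.57 ± 0.33 in 3MO CLPs, a difference of -1.05 (exact permutation test, two-sided p = 0.1, n = 3 per group, adjusted p = 0.2 over 4 comparisons), and -0.03 ± 0.08 and -0.29 ± 0.67 in the MPPs. The 1MO CLPs and 1MO MPPs were also apart, by 1.65 (exact permutation p = 0.1, adjusted p = 0.2). As above, 0.1 is the smallest p this design can give.

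**Figure D3:**
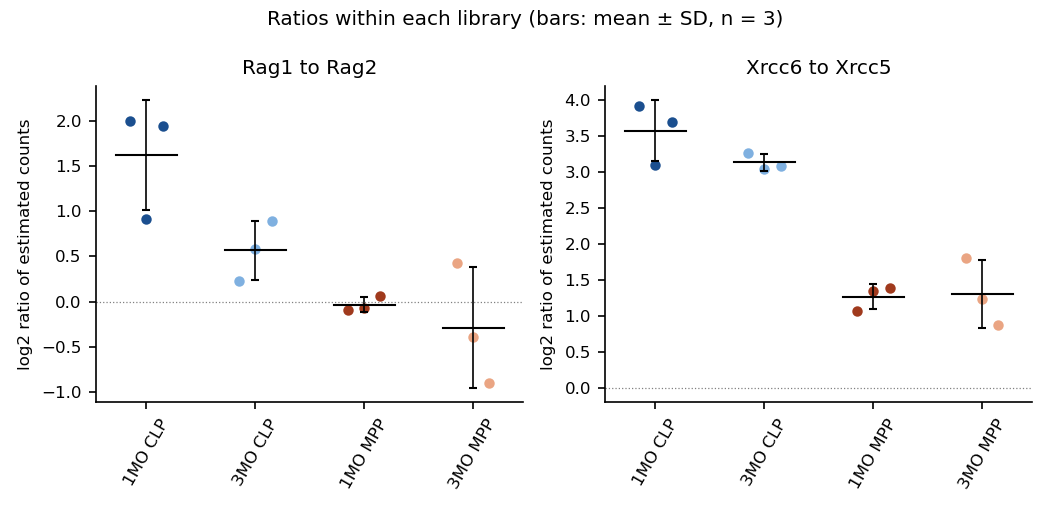
Log2 ratio of the estimated counts of Rag1 to Rag2 (left) and of Xrcc6 to Xrcc5 (right) in each library by group; points are libraries, bars the mean and SD of 3, and the dotted line marks equal counts. Rag1 to Rag2 lies between 0.92 and 2.00 in 1MO CLPs and between 0.23 and 0.89 in 3MO CLPs, and Xrcc6 to Xrcc5 lies above 3 in every CLP library and below 2 in every MPP library.

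The summed levels of several marker lists, on which no test was run, lay apart between the CLP libraries of the 2 ages. In this comparison 0.0748% of all genes were called, a share of tests passed and not of genes whose libraries lay apart. The latter share was not determined. As above, full separation of 3 libraries from 3 cannot give an exact permutation p below 0.1. The summed level of the 11 B-lineage markers other than Rag1 and Rag2 was 183 to 222 CPM in 1MO and 137 to 167 CPM in 3MO CLPs, without overlap. Ms4a1 was at 0 in all CLP libraries of both ages and Igll1 in those of 1MO. Ebf1, the B-lineage transcription factor, averaged 63.7 ± 11.8 CPM at 1MO and 28.4 ± 8.92 at 3MO (adjusted p = 0.67), whereas the adaptor Blnk averaged 89.7 ± 9.41 and 104 ± 13.3 (adjusted p = 0.937), and 0 of the 8 markers tested were called. The sum over 13 T-lineage markers was 124 to 140.3 CPM at 1MO and 88.4 to 95.5 at 3MO, with Lck (94.3 and 72.1 CPM on average) and Tcf7 (25.2 and 14.8) the largest parts. Of these markers 2 were at 0 in all 1MO CLP libraries and 5 in all 3MO ones, Cd8b1 at both ages, and 0 of the 5 tested were called. The sum over 10 plasmacytoid dendritic markers was 1890 to 1909 CPM at 1MO and 1628 to 1673 at 3MO, with Klk1 at 0 and 0 of the 9 tested called. Its largest parts were Irf8 (848 and 729.9 CPM on average) and Tcf4 (749.5 and 677), whereas Siglech averaged 69.3 and 55.8. Tcf4 also averaged 436 CPM in 1MO MPPs and 469 in 3MO MPPs. Natural killer and innate lymphoid, myeloid and erythroid sums overlapped between the ages, as did those of the CLP, MPP and proliferation markers. The sum over 9 stromal markers was 574 to 986 CPM at 1MO, highest in replicate 1, and 368 to 400 at 3MO. Its largest part was Pecam1, at 277 CPM on average at 1MO and 279.7 at 3MO, and Pdgfrb averaged 100.6 and 100.9. Pecam1 was also higher in CLPs than in MPPs at 1MO (log2 0.91, edgeR adjusted p = 0.00293), so the sum does not measure stromal cells alone. Of the 7 stromal markers tested, 2 were called lower at 3MO, the collagen genes Col1a1 (223 ± 153 against 0.64 ± 1.11 CPM, SD, n = 3, edgeR adjusted p = 0.0337) and Col1a2 (100.3 ± 58.9 against 0.55 ± 0.96 CPM, adjusted p = 0.00378). Without 1MO CLP replicate 1, Rag1 was at -1.44 with adjusted p = 0.13. The part of these cell types in the Rag1 difference was not tested.

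Levels of different members were compared per kilobase (kb) of merged exons. In 1MO CLPs, Dntt had 1139 ± 235 CPM per kb, a level that only 8 of the 32158 genes with an annotated length exceeded. It was followed by Xrcc6 (57.6 ± 3.33), Rag1 (39.8 ± 9.80), Rag2 (24.9 ± 5.49), Prkdc (18.2 ± 1.35), Xrcc5 (8.66 ± 2.32) and Dclre1c (4.03 ± 0.72 CPM per kb). Xrcc4, Nhej1 and Lig4 were lowest, at 1.48 ± 0.46, 1.18 ± 0.81 and 0.95 ± 0.53. Ranges of neighbours in this order overlapped between Rag1 and Rag2, between Xrcc4 and Nhej1 and between Nhej1 and Lig4, and not elsewhere. In 3MO CLPs Rag1 (14.6 ± 3.85 CPM per kb) stood below Prkdc (19.7 ± 1.02) and Rag2 (18.7 ± 1.97), the ranges of all 3 overlapping.

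In 1MO MPPs Dntt was again first, at 183 ± 16.3 CPM per kb with 105 genes above it, followed by Xrcc6 (21.8 ± 2.22), Xrcc5 (15.8 ± 1.34) and Prkdc (15.2 ± 3.63). Rag2 (3.67 ± 0.45 CPM per kb) ranked 5 and Rag1 (1.85 ± 0.21) ranked 8 of the 10, and in 3MO MPPs they ranked 6 (3.09 ± 1.80) and 9 (1.15 ± 0.36). Xrcc6 thus exceeded Xrcc5 per kb 6.65-fold in 1MO CLPs and 1.38-fold in 1MO MPPs on the group means. With the longest transcript as length (3296 bases in Xrcc6, whose merged exons have 4476) these were 9.03-fold and 1.87-fold.

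**Figure D4:**
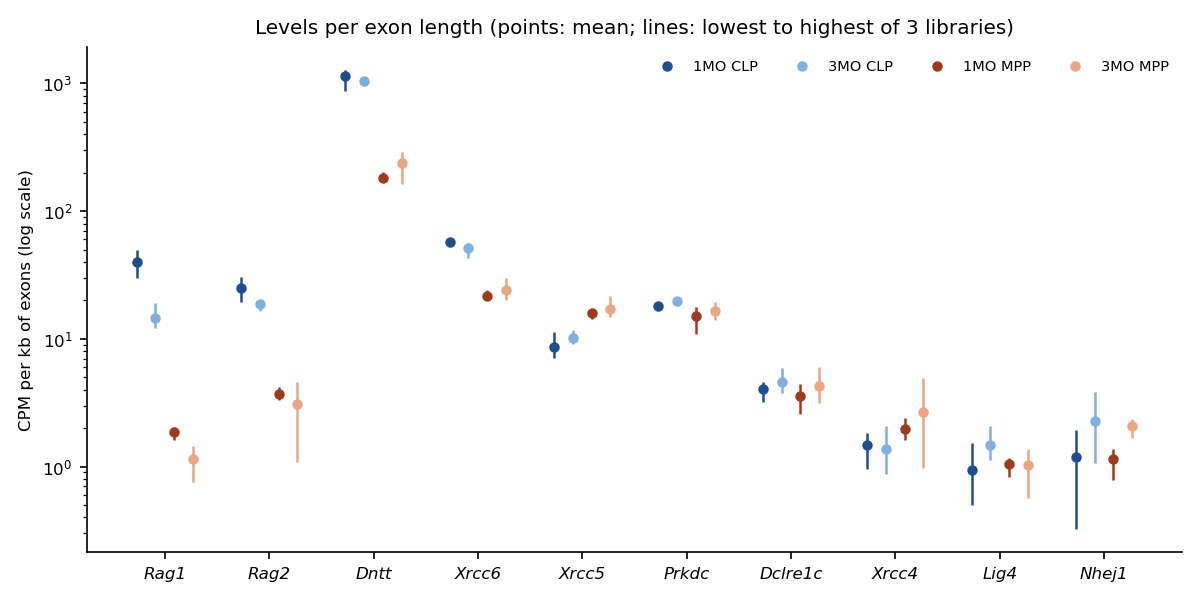
CPM per kb of merged exons (log axis) of each member in the 4 groups; points are means and vertical lines run from the lowest to the highest of 3 libraries. Dntt is highest in every group, Rag1 and Rag2 move from above Prkdc in 1MO CLPs to below it in MPPs, and the group means of Prkdc lie between 15.2 and 19.7.

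The members also differed in how much they varied. The SD of log2 CPM over all 12 libraries was 2.20 for Rag1, 1.54 for Rag2 and 1.28 for Dntt, against 0.25 for Prkdc, 0.35 for Dclre1c, 0.49 for Xrcc5, 0.57 for Lig4, 0.68 for Xrcc6, 0.69 for Xrcc4 and 0.79 for Nhej1, and a median of 0.44 over all tested genes. Within groups the order was another: 0.20 for Xrcc6, 0.23 for Prkdc, 0.26 for Xrcc5, 0.28 for Dntt, 0.36 for Rag1, 0.37 for Dclre1c and 0.58 for Rag2, and 0.58 to 0.75 for the sparsely counted Lig4, Xrcc4 and Nhej1, beside a median of 0.40. Over the 12 libraries, Pearson's r of log2 CPM was 0.95 between Rag1 and Rag2, 0.94 between Rag1 and Dntt and 0.96 between Rag2 and Dntt, values that rest largely on the split between CLPs and MPPs. Within the 6 CLP libraries they were 0.58, 0.25 and 0.65.

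Among the 9310 genes with a mean of at least 10 CPM, those with the pattern most like Rag1 over the 12 libraries were Tspan2 (r = 0.99), Thbd (0.99), Themis2 (0.98), Kmo (0.97) and Elf1 (0.97), and they kept r of 0.83 to 0.93 within the 6 CLP libraries. For Rag2 they were B3gnt2 (0.99), Ptger4 (0.98), Egln1 (0.98), Kcng1 (0.98) and Siglech (0.98), with r within CLPs from 0.22 to 0.89. For Dntt they were Ly86 (0.99), Ighm (0.99), S1pr3 (0.99), Egln1 (0.98) and Mpeg1 (0.98), with 0.54 to 0.97 within CLPs. These values describe likeness over libraries that share depth and cell type.

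None of the 3 neighbouring genes examined was called higher in CLPs, as Rag1 and Rag2 were. B230118H07Rik (chr2:101560781-101649532, minus strand) spans both Rag genes in the annotation. Its level was 2.79, 3.61 and 1.97 CPM in 1MO CLPs, 6.26, 3.6 and 5.14 in 3MO CLPs, 14.5, 8.23 and 17.0 in 1MO MPPs, and 17.3, 17.6 and 18 in 3MO MPPs. Every CLP library lay below every MPP library, the reverse of Rag1 and Rag2. Its log2 fold change between CLPs and MPPs was -2.24 at 1MO (SE 0.41, adjusted p = 0.00325) and -1.83 at 3MO (SE 0.40, adjusted p = 0.0132). Exons of B230118H07Rik share 80 bases with Rag1 on the same strand and 208 bases with Rag2 on the opposite strand, so assignment of reads there is uncertain. Traf6, an adaptor of innate immune signalling that lies nearby, was at 107 ± 9.17 CPM in 1MO CLPs and 90.0 ± 6.09 in 1MO MPPs (log2 0.25, adjusted p = 0.549), and Prr5l was below 3 CPM on average in every group and was not called.

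**Figure D5:**
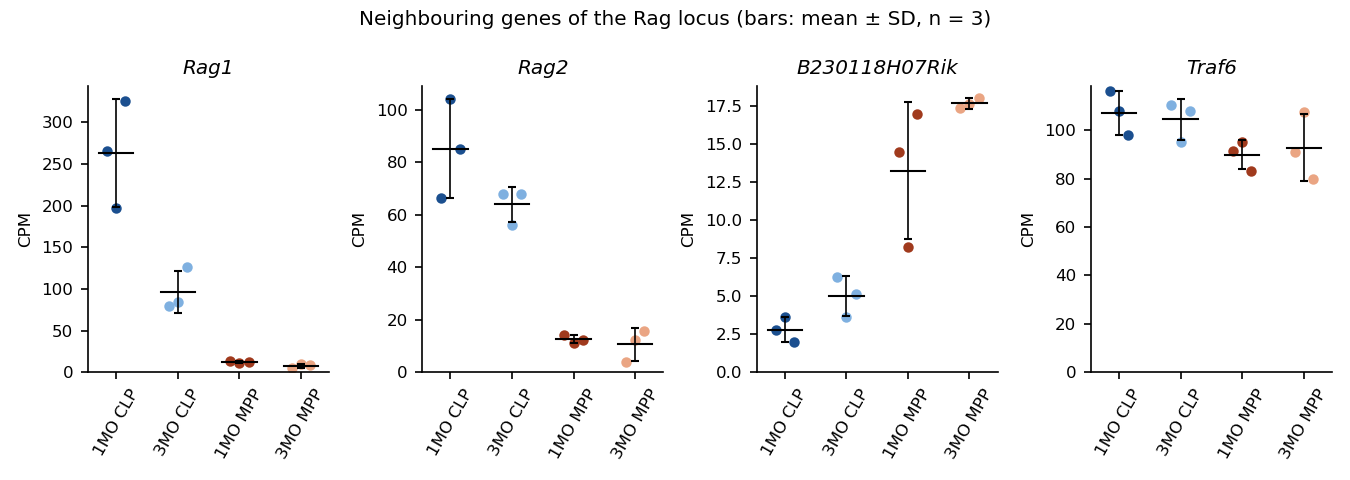
CPM (linear axis from 0) of Rag1, Rag2, B230118H07Rik and Traf6 in each library by group; points are libraries and bars the mean and SD of 3. Rag1 and Rag2 are high in CLPs and low in MPPs, B230118H07Rik lies below 6.3 CPM in every CLP library and above 8 CPM in every MPP library, and the range of Traf6 over all CLP libraries overlaps that over all MPP libraries.

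Transcription factors known to act on the Rag locus or on lymphoid specification were taken from a list of 24 genes, of which 23 were tested. At 1MO 5 were higher in CLPs and 3 lower, and at 3MO 6 were higher and 0 lower, with median log2 fold changes of 0.40 and 0.34. Of all tested genes, 5.38% at 1MO and 6.07% at 3MO were called in either direction. The 3 with the smallest p at 1MO were Ebf1 (log2 7.14, adjusted p = 1.73e-06), Ets1 (1.41, adjusted p = 3.77e-05) and Ikzf1, which encodes Ikaros (0.83, adjusted p = 0.00134). Ebf1 averaged 0.49 CPM in 1MO MPPs. None of the 23 was called between ages in CLPs, where 0.0748% of all genes were. Foxo1, a known activator of Rag transcription, averaged 58.5 ± 9.53 CPM at 1MO and 35.6 ± 2.49 at 3MO in CLPs (log2 -0.72, SE 0.22, adjusted p = 0.598), and was higher in CLPs than in MPPs at 1MO (0.84, adjusted p = 0.0334) and not called at 3MO (0.14, adjusted p = 0.812).

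The other repair lists held 0 to 2 called genes each between CLPs and MPPs, where 5.38% of all tested genes were called at 1MO and 6.07% at 3MO. Of 14 accessory end-joining genes, 0 were called in any comparison, with a median log2 fold change of 0.08 between CLPs and MPPs at 1MO. The 3 with the smallest p there were the DNA-bending protein Hmgb1 (0.47, adjusted p = 0.17), the Ku-binding inhibitor Cyren (-0.88, adjusted p = 0.463) and the polymerase Poll (0.63, adjusted p = 0.481). Of 15 genes for break sensing and end protection, 0 were called at 1MO and the ubiquitin ligase Rnf168 alone was higher in CLPs at 3MO (0.53, adjusted p = 0.0474). Of 8 genes of alternative end joining, Parp1, the poly(ADP-ribose) polymerase that senses breaks, was higher in CLPs at 1MO (0.90, adjusted p = 0.00317) and 3MO (0.94, adjusted p = 0.00262), and the flap nuclease Fen1 at 1MO (0.71, adjusted p = 0.0222). Of 16 homologous recombination genes, 0 were called at 1MO and Bard1, the partner of BRCA1, was higher at 3MO (0.79, adjusted p = 0.0267), where the list's median was 0.42 with 13 positive values, beside 0.04 with 9 positive at 1MO. No gene of these 4 lists was called between ages. The 16 proliferation markers all had positive log2 values in CLPs over MPPs at both ages, of which 2 at 1MO and 1 at 3MO were called, and their part in the differences of Xrcc6, Parp1 and Fen1 was not tested.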

How the data were processed

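The authors deposited 1 table of estimated counts per gene (Salmon, scaled by transcript length and not by depth), made from total RNA that was poly(A)-selected per the study's methods, with a directional NEBNext Ultra II kit per the labels, and, per the submitters' processing notes, with FastQC, UMI-tools, Trim Galore, STAR and Salmon on mm10. The annotation used is not given in the sources used here. All 12 columns matched a sample by name. Counts were rounded and fitted in edgeR 4.0.16 (R 4.3.3) with filterByExpr (minimum count 10), TMM factors and 1 quasi-likelihood model of the 4 groups. Benjamini-Hochberg adjustment ran over all 13367 tested genes with a threshold of 0.05. DESeq2 1.42.0, other filters and each library left out were alternatives. Scripts were tested on simulated data. Every two-sided exact permutation test of ratios covered 4 comparisons. Correlations used log2 CPM with a prior count of 2. Exon lengths came from GENCODE M21, whose identifiers held 32158 genes of the table. The members and gene lists were chosen with earlier results of these data known. Named beside the members were, per list, the 3 genes with the smallest p between CLPs and MPPs at 1MO and the 2 smallest between ages in CLPs, of which those that bear on a member are printed, and the 5 genes most like each lymphoid-specific member. Il2rg, Rnf168, Bard1 and the ratio of Xrcc6 to Xrcc5 were singled out after their values were seen. Counting error aside, precision is limited by 3 libraries per group.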

Additional observations from a re-analysis of the deposited data

How the results depend on the processing

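Rag1, Rag2, Dntt and Xrcc6 kept their calls between CLPs and MPPs at both ages under every alternative run. Xrcc5, not called otherwise, was called at 1MO and 3MO by DESeq2, and at 1MO without 1MO CLP replicate 2 (adjusted p = 0.0377) or 3MO MPP replicate 1 (adjusted p = 0.0452). The age difference of Rag1 in CLPs was called by DESeq2 and under the other scaling and no filter, but with only the groups compared 0 members were called, and with 1 library left out 0 to 1, the adjusted p of Rag1 running from 0.0114 to 0.306. The cause was not tested.

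The number of genes called between ages in CLPs was 46 with no filter on low counts, 65 with DESeq2, 4 with only the groups compared, and 6 to 10 with 1 library left out (6 without 1MO CLP replicate 1 or 3MO CLP replicate 2). In MPPs it was 26 with no filter, 35 with DESeq2 and 3 to 5 with a library left out (5 without 3MO MPP replicate 2), and for the interaction 6, 7 and 0 to 1 (1 without 3MO CLP replicate 3). Between CLPs and MPPs, DESeq2 called 1237 genes at 1MO and 1438 at 3MO, only the groups compared gave 435 at 3MO, and leaving out a library gave 460 to 887 at 1MO (460 to 477 without 1MO CLP replicate 2 or 3 or 1MO MPP replicate 1 or 3) and 553 to 881 at 3MO.

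Signs turned only for members that were not called. With a library left out, the age difference in CLPs ran from -0.56 to 0.12 in Xrcc4 and from -0.014 to 0.32 in Dclre1c. In MPPs it ran from -0.62 to 0.16 in Rag2, -0.078 to 0.21 in Xrcc5, -0.039 to 0.27 in Xrcc6, -0.37 to 0.82 in Xrcc4, -0.28 to 0.27 in Lig4, -0.059 to 0.25 in Prkdc and -0.025 to 0.48 in Dclre1c. The interaction ran from -0.57 to 0.20 in Rag2, -0.012 to 0.36 in Xrcc5, -0.99 to 0.25 in Xrcc4, -0.13 to 0.18 in Prkdc, -0.30 to 0.22 in Dclre1c and -0.52 to 0.63 in Nhej1. Between CLPs and MPPs, Lig4 ran from -0.68 to 0.16 and Nhej1 from -0.50 to 0.47 at 1MO, and Dclre1c from -0.093 to 0.41 and Nhej1 from -0.48 to 0.47 at 3MO.

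The labels do not say what a replicate number shares, the study's methods describe sorting mouse by mouse, and the pairing is not settled: correlations of deviations between same-numbered libraries of 2 groups ran from -0.03 to 0.21, not over 0.1 in every pair, while the best match carried the same number in 22 of 36 cases. The summed erythroid markers were 101 to 159 CPM in the libraries numbered 3 and 12.8 to 31.9 in the others. With a replicate block, 11 and 3 genes were called between ages in CLPs and MPPs, 0 for the interaction, and 915 and 1007 between CLPs and MPPs at 1MO and 3MO (836 and 921 with a block for each age and number), with the same members called. Under the block the age difference of Lig4 in MPPs turned to 0.038 and Nhej1 at 1MO to -0.057, and under the block for each age and number Nhej1 between CLPs and MPPs was at -0.17 (1MO) and -0.052 (3MO).

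Counts were lowest in Nhej1 (4 to 77 per library), and Lig4 (29 to 194) and Xrcc4 (47 to 196) varied between libraries of a group by CVs of up to 56.2% and 76.5%. With the longest transcript as length, Xrcc5 and Prkdc changed places in the MPPs of both ages, Rag2 and Dclre1c in 1MO MPPs, Rag2 and Xrcc4 in 3MO MPPs, and Lig4 and Xrcc4 in 3MO CLPs. An added count of 1 moved no ratio beyond its spread.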
